A study of Homo sapiens with 3 samples.

Results

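The nuclear genes for proteins of the mitochondrial ribosome and of the respiratory chain were followed in a PAR-CLIP experiment on MATR3 (matrin 3), a nuclear RNA-binding protein, in HEK293 cells of wild-type genotype. HEK293 is an established line from human embryonic kidney. The genes were taken by name from the deposited clusters outside the mitochondrial chromosome. Names beginning with MRPL or MRPS made the ribosome class. Names beginning with NDUFA, NDUFB, NDUFC, NDUFS, NDUFV, SDHA, SDHB, SDHC, SDHD, UQCR or ATP5 made the respiratory class. Pseudogene and antisense names were left out. In this way 139 genes, 67 of the ribosome and 72 of the respiratory class, had at least 1 cluster, of 13557 gene names in all. They held 2826 of the 388807 clusters. The 3 samples were biological replicates of a single group, all made with an antibody against MATR3 and labelled as untreated. No control library was used here, so each comparison was made between classes of genes inside the same libraries.

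Mitochondria carry their own ribosome, whose RNAs come from the mitochondrial genome and whose proteins are all encoded in the nucleus. That ribosome translates only a small set of respiratory chain subunits, while the other subunits of complexes I, III and V and all of complex II come from nuclear genes. Both classes are therefore transcribed, spliced and exported like other nuclear genes, and their proteins are then imported into the mitochondrion. MATR3 is a nuclear matrix protein with RNA recognition motifs and zinc fingers, known for binding pyrimidine-rich sequence in introns and for effects on splicing. In PAR-CLIP a photoactivatable nucleoside in the RNA is crosslinked to the protein, and crosslinked uridines are read as C in place of T, called T-to-C changes. A cluster is a stretch of overlapping reads with such changes.

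The places where clusters of all 3 replicates shared bases are given first. A site needed only 1 shared nt, so a shared stretch can be the edge of longer clusters and not a whole bound stretch. There were 27 such sites in 19 of the genes, 11 in the ribosome class and 16 in the respiratory class, and the authors' files classed 25 of them as intron. The 6 intron sites with the most reads in their weakest replicate are printed here, since they are the places that recurred with the most reads. Each sequence is the stretch shared by the 3 replicates, 5′ to 3′ on the transcribed strand in hg38, and capitals mark TCTT, together with the A before it where the letters are ATCTT, the DNA form of a motif known for MATR3.
MRPL37, chr1:54207122-54207165, plus strand, intron 3: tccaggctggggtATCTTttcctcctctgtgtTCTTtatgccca
MRPL37, chr1:54207054-54207108, plus strand, intron 3: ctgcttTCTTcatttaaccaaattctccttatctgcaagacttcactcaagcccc
NDUFA10, chr2:240004240-240004249, minus strand, intron 8: atgcggcaga
MRPL37, chr1:54224182-54224216, plus strand, classed as intron: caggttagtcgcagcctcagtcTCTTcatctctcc
NDUFA10, chr2:239981101-239981113, minus strand, intron 9: agtcctggcagcc
ATP5J, chr21:25721512-25721550, minus strand, classed as intron: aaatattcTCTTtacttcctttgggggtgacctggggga

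The first MRPL37 site lay under clusters of 93, 34 and 122 reads in replicates 1, 2 and 3, of which 73, 30 and 101 carried a T-to-C change. The second lay under the same clusters in replicates 1 and 3 and under another cluster of 24 reads in replicate 2, so the pair is a single bound stretch of intron 3 in replicates 1 and 3. At the intron 8 site of NDUFA10 the clusters held 50, 65 and 23 reads. The remaining sites in MRPL37, NDUFA10 and ATP5J had 43, 17 and 21 reads, 15, 15 and 16 reads, and 36, 18 and 14 reads. Sites printed without an intron number were not placed in an intron of the canonical transcript. TCTT was present in 14 of the 27 sites and ATCTT in 1, the first MRPL37 site. Over all intron clusters TCTT was in 42.8% of the ribosome and 40.8% of the respiratory class, and ATCTT in 11.01% and 9.38%. Those clusters had median lengths of 39.3 and 40.2 nt, longer than the shared stretches, so the site counts are no measure of enrichment. The shared stretches had a median length of 32 nt, and the shortest, in NDUFA10, had 2 nt. NDUFA10 had 4 sites, MRPL37 and MRPL13 had 3 each and ATP5F1 had 2. Neighbouring MRPL13 sites both lay under clusters of 12 and 7 reads in replicates 1 and 2, so not every site is a separate bound stretch. A single site each was found in ATP5J, MRPL21, MRPS5, MRPS15, MRPS25, MRPS27, NDUFA3, NDUFA5, NDUFA9, NDUFA11, NDUFA12, NDUFAB1, NDUFAF6, NDUFV2 and UQCRC2. None of the 27 was classed as 3′ UTR. Support was thin at some of them, and the NDUFAF6 site lay under clusters of 4, 1 and 1 distinct reads.

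The libraries held 133088, 131679 and 124040 clusters with 1649124, 1506682 and 1532602 reads in replicates 1, 2 and 3, and the genes described here took 940, 979 and 907 of those clusters and 0.755%, 0.781% and 0.736% of those reads. The ribosome class had 6286, 5591 and 5081 reads, and the respiratory class 6168, 6181 and 6202. The median cluster held 10, 8 and 9 reads in the ribosome class and 10, 9 and 10 in the respiratory class. Reads carry no molecular identifiers and can be copies of 1 molecule, so counts cover counting error only. Distinct reads were fewer, at 2163, 2360 and 1740 in the ribosome class and 2094, 2534 and 2119 in the respiratory class. The median cluster held 3, 4 and 3 distinct reads in each class. Every deposited cluster had at least 4 reads, so a gene with no cluster is one with no binding seen at this depth. Across genes the replicates ranked alike, with a Spearman correlation of reads of 0.868 over 138 genes for replicates 1 and 2, 0.831 over 131 for 1 and 3, and 0.866 over 134 for 2 and 3. Those correlations are across genes, which are not replicates and share their lengths.

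Most of these genes were bound in every replicate. Of 160 annotated protein-coding genes of the 2 classes, 107 (66.9%) had a cluster in all 3 replicates, beside 40.7% of all 20005 nuclear protein-coding genes. The respiratory class had 61 of 83 genes in all 3 replicates (73.5%), and the ribosome class 46 of 77 (59.7%). A cluster in any replicate was found for 86.9% of the 160, beside 55.8% of all protein-coding genes. For the proteins of the cytosolic ribosome the count in all 3 replicates was 64 of 87 genes (73.6%). Transcript levels were not measured here, so the part of expression in these counts was not tested. In bulk samples, binding in fewer cells and less binding per cell cannot be told apart.

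The genes without any cluster were 10 of the ribosome class and 11 of the respiratory class. In the ribosome class they were MRPL28, MRPL36, MRPL41, MRPL44, MRPL51, MRPL54, MRPL55 and MRPL57 of the large subunit and MRPS24 and MRPS26 of the small subunit. In the respiratory class they were NDUFA4L2, NDUFB10, NDUFB11 and NDUFC1, the assembly factor SDHAF1, UQCR10 and UQCRHL of complex III, and ATP5F1D, ATP5ME, ATP5MGL and ATP5PO of the ATP synthase. Both lists were made mostly of short genes, with 8 of the 10 and 8 of the 11 under 5 kb, while the longest of the 21 measured 35.7 kb. Genes with a cluster in all 3 replicates had a median length of 16.5 kb in the ribosome class against 4.62 kb for those with fewer. In the respiratory class the medians were 19.2 kb and 5.62 kb.

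Gene length and the number of clusters went together inside the classes, with a Spearman correlation of 0.740 over the 160 genes, against 0.393 over all protein-coding genes. Set beside protein-coding genes of like length, the share bound in every replicate was higher in each length class. The length classes were chosen after seeing the data. Under 5 kb the counts were 4 of 21 ribosome genes and 3 of 12 respiratory genes, beside 8.50% of all. Between 5 and 10 kb they were 8 of 13 and 11 of 20, beside 24.4%. Between 10 and 20 kb they were 14 of 21 and 18 of 20, beside 35.2%. From 20 to 50 kb, 11 of 12 and 22 of 24 genes were bound in all 3 replicates, beside 49.8%. All 6 ribosome and both respiratory genes from 50 to 100 kb were bound, beside 55.1%, and above 100 kb 3 of 4 and 5 of 5 were, beside 56.4%. Shares above those of all genes were not particular to these classes. For cytosolic ribosomal proteins, 22 of 35 genes under 5 kb and 21 of 27 from 5 to 10 kb were bound in all 3 replicates. From 10 to 20 kb it was 8 of 10, from 20 to 50 kb 11 of 12 and from 50 to 100 kb 2 of 3.

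The density of clusters was higher in these genes than in other protein-coding genes. Counted over the full annotated length of all genes, including those with no cluster, it was 2.20 ± 0.0842 clusters per 10 kb (SD, n = 3) against 0.771 ± 0.0249. The difference of 1.43 ± 0.0652 exceeded the spread between replicates and was positive in 3 of 3 (exact two-sided sign-flip p = 0.25, which is the smallest that 3 replicates allow). With the genomic span of the canonical transcript, introns included, as the length, the densities were 3.24 and 0.887 and the difference was 2.35. This choice was also made after seeing the data, and clusters of a gene outside that span still counted. The densities differed in every length class, by ratios of 1.72 under 5 kb, 1.94 from 5 to 10 kb, 2.04 from 10 to 20 kb, 1.59 from 20 to 50 kb, 2.01 from 50 to 100 kb and 2.77 above 100 kb. In each of these 6 classes the density was higher in 3 of 3 replicates. Restricted to genes bound in every replicate, the median density was 3.05 per 10 kb in the 107 genes and 2.004 in 8042 others, whose median length was 45.8 kb against 18.1 kb.

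**Figure D1:**
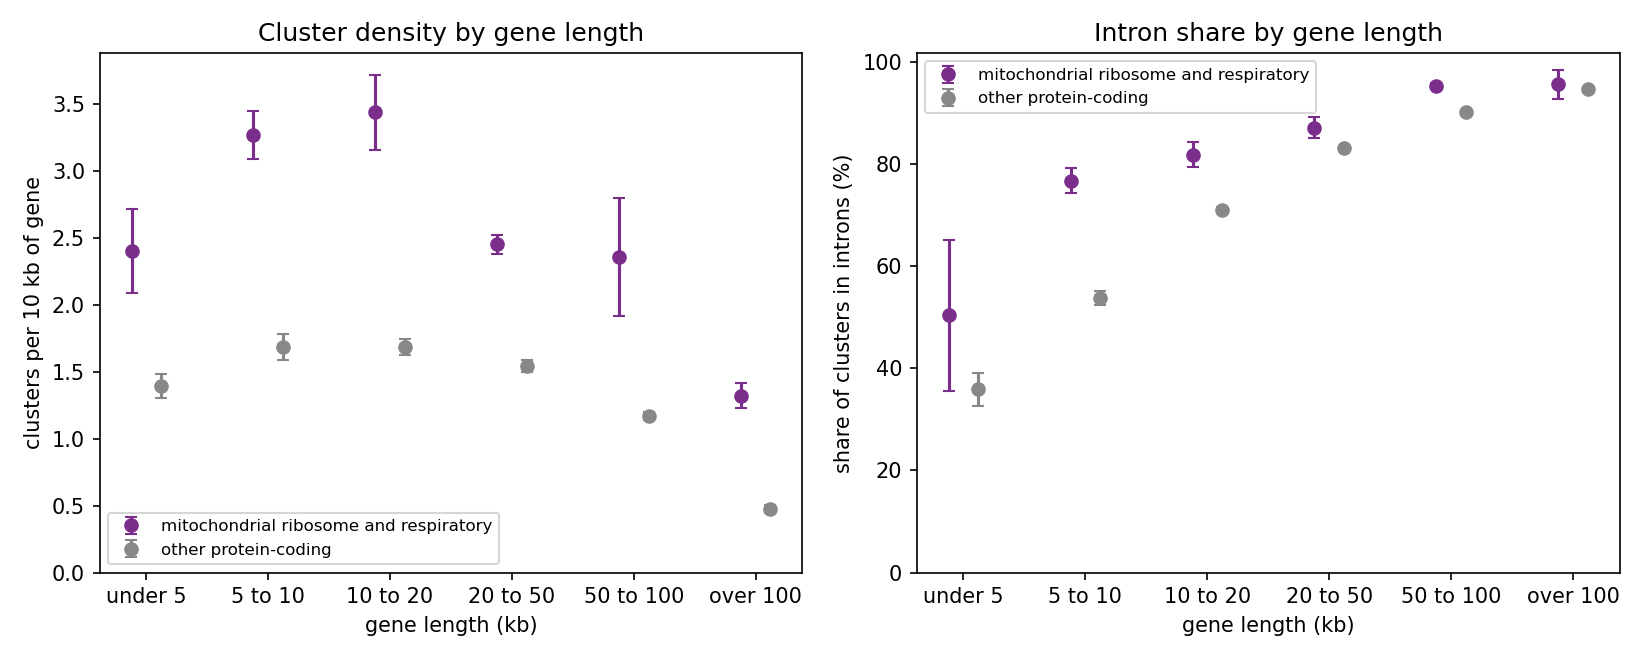
The left panel plots clusters per 10 kb of gene and the right panel the percent of clusters in introns, by class of gene length, for mitochondrial ribosome and respiratory genes together (purple) and other protein-coding genes (grey). Points are means and bars are SDs over 3 replicates. The purple density is higher in all 6 length classes, and the intron share rises with length in both sets, with its widest gap, 22.9 points, between 5 and 10 kb.

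By role in the organelle, as the gene name prefixes give it, the densities of the groups ranged from 1.07 to 3.11 clusters per 10 kb. They rest on annotated lengths, where MRPS22 has 355 kb with 2 clusters over all replicates, MRPL33 216 kb with 16 and NDUFAF6 221 kb with 35. Such long genes with few clusters lower the density of their groups, so these values do not rank the roles. The counts bound in all 3 replicates are read beside 40.7% of all protein-coding genes, and the median lengths of the groups ran from 8.31 kb in complex III to 34.3 kb in complex II with its assembly factors. The large subunit of the mitochondrial ribosome had 28 of 48 genes bound in all 3 replicates and 2.35 ± 0.255 clusters per 10 kb. The small subunit, which decodes the mRNA, had 18 of 29 genes and 1.90 ± 0.157. The NDUF prefixes other than NDUFAF, mostly of complex I, which takes electrons from NADH, had 28 of 40 genes and 2.48 ± 0.0776. Those 40 include the readthrough name NDUFC2-KCTD14, and NDUFA4 and NDUFA4L2 were placed there by name alone. The 7 NDUFAF assembly factors taken by name were bound in all 3 replicates, at 1.07 ± 0.0332, and NDUFAF2 alone held 52.4% of their clusters. Complex II, succinate dehydrogenase, with its assembly factors had 7 of 8 genes and 2.72 ± 0.214. For complex III, ubiquinol-cytochrome c reductase, 6 of 9 genes were bound at 2.80 ± 0.454, with UQCRC2 holding 48.1% of the clusters. The genes with the ATP5 prefix, mostly of the ATP synthase, had 13 of 19 bound at 3.11 ± 0.301 clusters per 10 kb (all SD, n = 3). They include ATP5SL (now DMAC2), a complex I assembly protein, and the readthrough name ATP5J2-PTCD1, which overlaps ATP5J2 and held 15% of the clusters of this prefix.

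A few genes held much of the signal. The 5 genes with most clusters held 34.1% of the clusters of the ribosome class and 30.7% of those of the respiratory class, and the 10 with most held 53.7% and 45.2%. Levels of single genes are given as normalised reads, the reads in clusters of a gene per 1000000 reads in gene-annotated clusters of that replicate. They are not divided by gene length, so they show how a gene varied over replicates and do not rank binding between genes.

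NDUFA10, an accessory subunit of complex I, held the most reads of the respiratory class. It had 60, 69 and 61 clusters and 628, 779 and 581 normalised reads in replicates 1, 2 and 3, with a mean of 663 ± 104 (SD, n = 3). The gene lies on the minus strand at chr2:239892450-240025743 and 183 of its 190 clusters were in introns. All were placed in the first 80 kb of the annotated gene, with 15, 16 and 12 in the first 20 kb, 17, 25 and 21 in the next, then 21, 20 and 20, then 7, 8 and 8. The remaining stretch of this 133 kb annotation had none, and the exons of its canonical transcript also lie in the bound stretch. No cluster of NDUFA10 exceeded 77, 65 and 50 reads in replicates 1, 2 and 3.

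MRPL37, a protein of the large subunit, held the most reads of the ribosome class on average. It is on the plus strand at chr1:54184041-54225464. It had 29, 33 and 26 clusters and 499, 392 and 374 normalised reads, with a mean of 422 ± 67.9 (SD, n = 3). The authors' files classed 82 of 88 clusters as intron. The last exon of its canonical transcript is centred at 34.2 kb from the gene start. Clusters also lay past that exon in every replicate, with 1, 6 and 3 of them beyond 40 kb. Its leading cluster differed by replicate, in intron 6 with 95 reads, in intron 1 with 61 and in intron 3 with 122. The intron 3 cluster overlapped clusters of both other replicates.

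**Figure D2:**
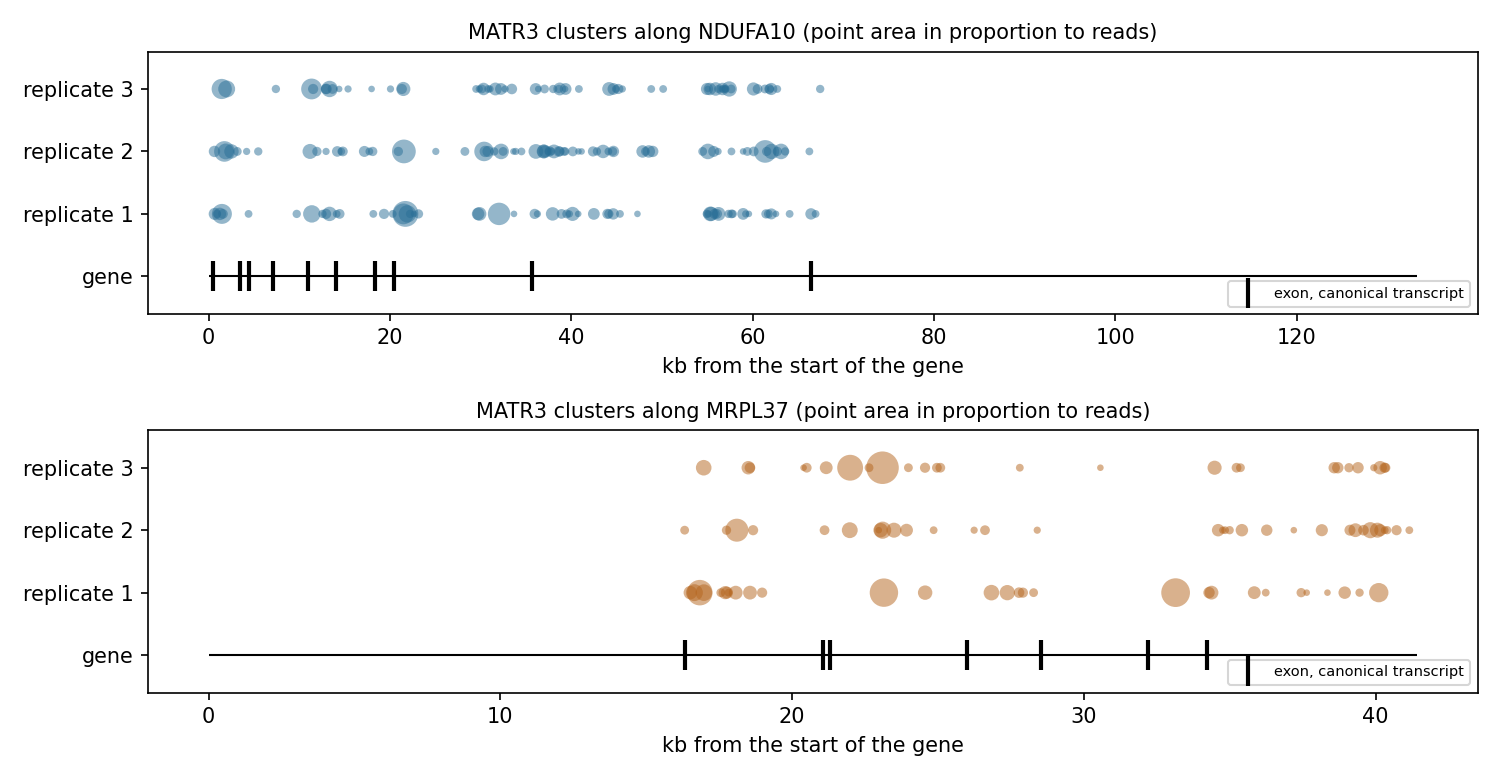
Clusters of each replicate along NDUFA10 (top, blue) and MRPL37 (bottom, orange), by distance in kb from the annotated gene start. Point area is in proportion to the reads in the cluster and black marks are exons of the canonical transcript. Clusters lie between and around the exons in every replicate, and NDUFA10 has none beyond 80 kb. In MRPL37 many also lie past the last exon, centred at 34.2 kb.

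Other leading genes of the small subunit were MRPS28, MRPS6, MRPS27 and MRPS25. MRPS28 had 200, 401 and 305 normalised reads, a mean of 302 ± 100.2 (SD, n = 3), so replicate 2 was the highest and replicate 1 the lowest. MRPS6 had 267, 347 and 174, and MRPS25 had 197, 283 and 130. MRPS27, a pentatricopeptide repeat protein, was steadier at 223, 218 and 272, a mean of 238 ± 29.5. All 93 clusters of MRPS27 were in introns, as were 117 of 118 in MRPS28 and 83 of 84 in MRPS6.

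In the large subunit MRPL3 was the steadiest of the leading genes, with 224, 203 and 209 normalised reads (212 ± 10.8, SD, n = 3). MRPL1 had 213, 256 and 123, MRPL19 had 224, 141 and 143, and MRPL13 had 205, 118 and 114. MRPL46 spread most, with 256, 161 and 63.3 (160 ± 96.4, SD, n = 3). In MRPL46 a single intron 3 cluster of 237 reads, at chr15:88463766-88464113 on the minus strand, led replicate 1. A different intron 3 cluster of 138 reads led replicate 2, and the leading cluster of replicate 3 had 18 reads. MRPS11 starts next to MRPL46 on the opposite strand and had 147, 48.9 and 22.1 normalised reads, so it was also highest in replicate 1 and lowest in replicate 3. Over the 107 genes the highest replicate exceeded the lowest by a median of 2.05-fold, and MRPS11 had the widest ratio at 6.66-fold.

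Among the respiratory genes after NDUFA10, the assembly factor NDUFAF2 had 219, 194 and 159 normalised reads, with all 88 clusters in introns. NDUFV2, an iron-sulfur subunit of the NADH-oxidising module, had 190, 118 and 229. NDUFS4 had 173, 163 and 130, and all 61 of its clusters were in introns. Its leading clusters, of 54, 38 and 35 reads, lay close together in intron 2, on the plus strand at chr5:53609826-53609998 in replicate 1, chr5:53609694-53609787 in replicate 2 and chr5:53609823-53609904 in replicate 3. Those of replicates 1 and 3 overlapped, and that of replicate 2 shared no base with them. NDUFA9 had 171, 169 and 105, NDUFS6 had 144, 123 and 141, and NDUFAB1, the mitochondrial acyl carrier protein, had 127, 151 and 144. UQCRC2, a core subunit of complex III, had 158, 147 and 110. ATP5G2, a gene for the c subunit of the ATP synthase rotor, had 94.6, 85.1 and 244, so its mean of 141 ± 88.9 (SD, n = 3) rests mainly on replicate 3.

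**Figure D3:**
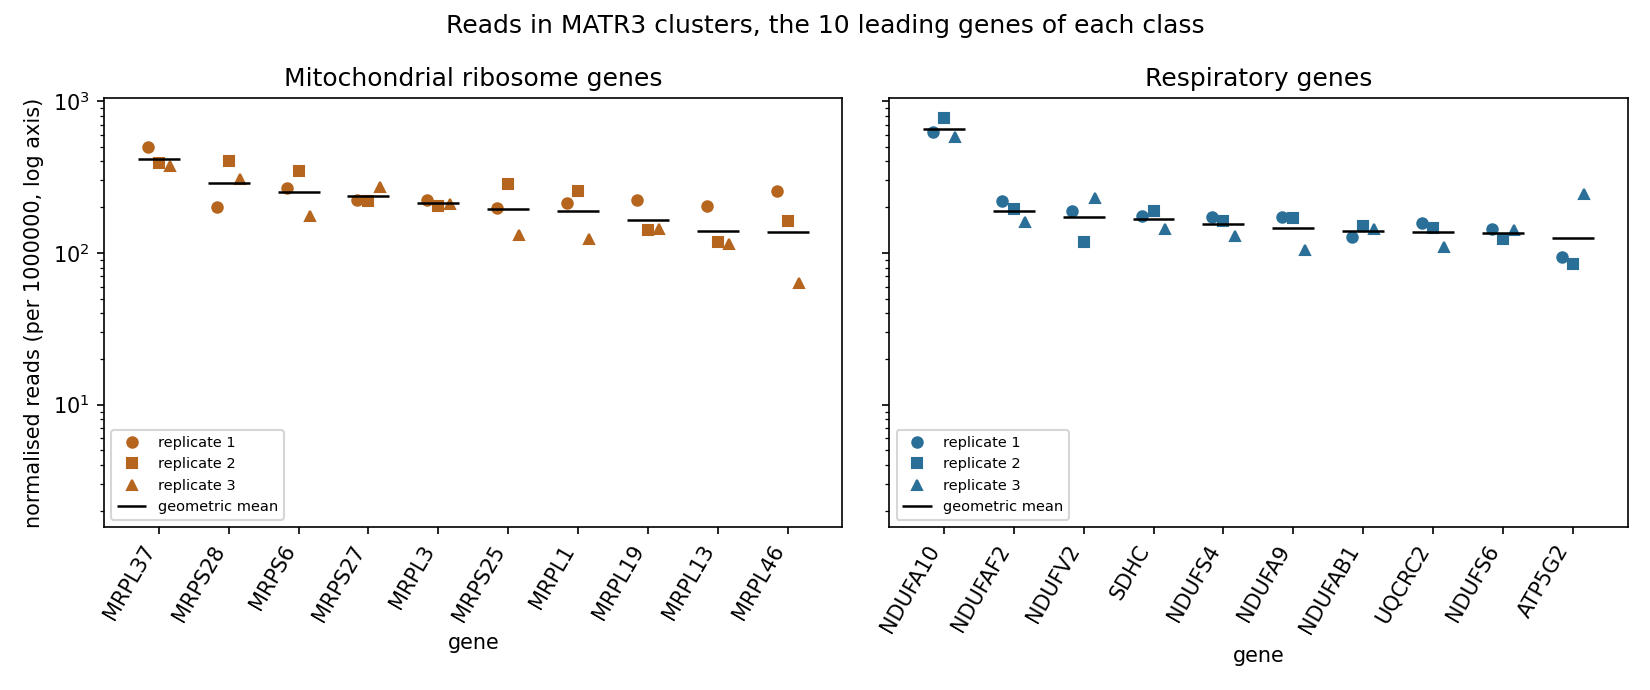
Normalised reads (log axis) in MATR3 clusters for the 10 leading genes of the ribosome class (left, orange) and of the respiratory class (right, blue). Each symbol is 1 replicate and the bar is the geometric mean. The 3 symbols lie close together for MRPL3 (224, 203 and 209) and far apart for MRPL46 (256, 161 and 63.3) and ATP5G2 (94.6, 85.1 and 244).

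A list of 9 catalytic or defining subunits was followed whatever their values, and 8 of the 9 had a cluster in all 3 replicates, beside 40.7% of all protein-coding genes. SDHC, a membrane anchor of complex II, had 174, 188 and 143 normalised reads (169 ± 22.9, SD, n = 3). The other anchor, SDHD, had 59.4, 34.6 and 68.4. The iron-sulfur subunit SDHB had 91.1, 88.8 and 103 with all 28 clusters in introns, and the flavoprotein SDHA had 22.8, 25.6 and 44.2 with all 15 in introns. In complex I, NDUFV1, which holds the flavin, had 7.60, 47.4 and 21.3. NDUFS1, the largest iron-sulfur subunit, had 0, 3 and 1 clusters and was bound in 2 replicates only. UQCRFS1, the Rieske protein of complex III, had 33.8, 7.53 and 16.2. The α subunit of the ATP synthase, ATP5A1 (now ATP5F1A), had 51.1, 18.8 and 19.1, and the β subunit, ATP5B (now ATP5F1B), had 25.5, 42.2 and 43.4.

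Introns held most clusters in both classes. In every set only the class named intron was counted, so clusters of boundary classes such as intron-coding or coding-intron counted outside introns. Of all clusters, 87.9% ± 0.140 (SD, n = 3) were in introns in the ribosome class and 86.7% ± 2.14 in the respiratory class. The difference was 3.04, 1.80 and -1.23 points in replicates 1, 2 and 3, so it changed sign and was smaller than its spread (exact sign-flip p = 0.5). The share in 3′ UTRs was 4.43% ± 0.574 and 5.92% ± 1.35, which also changed sign between replicates (exact sign-flip p = 0.5). When each gene counted equally the difference turned. The mean intron share per gene was then 75.7%, 77.2% and 69.2% in the ribosome class and 83.1%, 84.0% and 83.4% in the respiratory class, a difference of -9.51 ± 4.06 points that was negative in 3 of 3 replicates (exact sign-flip p = 0.25). Weighted in that way, the 3′ UTR share was 12.3% ± 3.44 in the ribosome class and 6.05% ± 1.11 in the respiratory class. A gene with 1 cluster then counts as much as a gene with many, so genes with few clusters weigh on these values.

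Genes with few or no intron clusters were found in both classes. No cluster in an intron was found in 6 of 67 ribosome genes and 1 of 72 respiratory genes, while all clusters were in introns in 20 and 29 genes. Those 6 ribosome genes had only 1 to 4 clusters each over the 3 replicates. MRPL11 had 4 clusters over the 3 replicates, of which 3 were in the 3′ UTR and none in an intron. MRPS2 had 1 of 10 clusters in an intron, 5 in the 3′ UTR and 4 in coding sequence. MRPL27 had 6 of 14 in the 3′ UTR. In MRPS18C 11 of 14 clusters, and in NDUFS3 10 of 18, carried the processed transcript class, which marks RNAs of a gene without an open reading frame. The respiratory gene without an intron cluster was NDUFAF3, with 3 clusters. Binding in 3′ UTRs was seen in 27 ribosome and 25 respiratory genes, with the most clusters in SDHC (8, 7 and 3 in replicates 1, 2 and 3) and NDUFA9 (5, 5 and 0). No gene had all of its clusters in the 3′ UTR in every replicate.

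**Figure D4:**
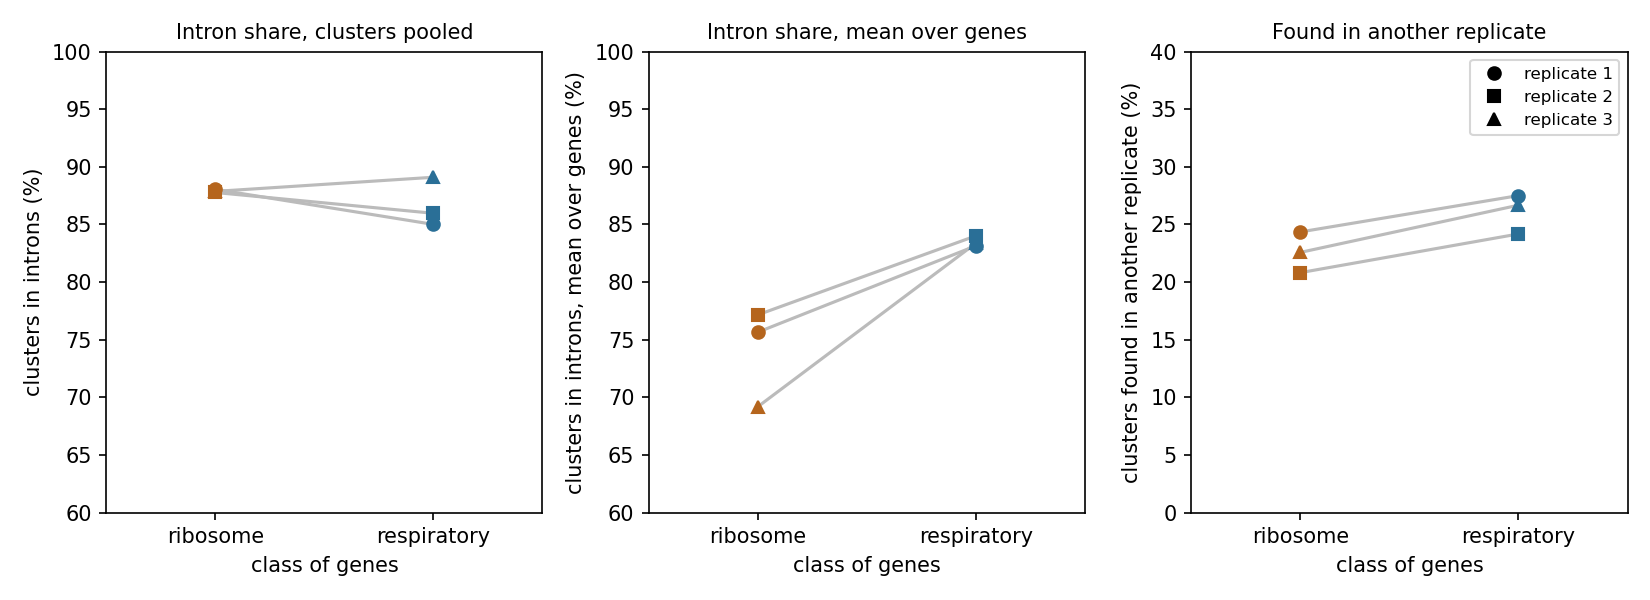
Each symbol is 1 replicate, and grey lines join the ribosome (orange) and respiratory (blue) values of the same library. The left panel gives the percent of clusters in introns with clusters pooled, the middle panel the mean of that percent over genes, and the right panel the percent of clusters found in another replicate. The left lines cross, while in the other 2 panels the respiratory class is higher in all 3 replicates.

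A larger share of respiratory than of ribosome clusters recurred in each replicate. A cluster counted as found when it shared at least 1 nt, strand included, with a cluster of another replicate. This held for 24.3%, 20.8% and 22.6% of ribosome clusters and 27.5%, 24.2% and 26.7% of respiratory clusters. The difference of -3.53 ± 0.495 points was larger than its spread and negative each time (exact sign-flip p = 0.25). When the overlap had to cover at least 50% of each of the clusters, the difference was -2.25 points. Without NDUFA10 and MRPS28, the genes with most clusters in each class, it was -1.64 ± 0.911 points, and among clusters with at least 10 reads it was -7.71 points, negative in 3 of 3 replicates in both cases. An overlap counts in each of its replicates, so the 3 values are not independent. With a pair of replicates at a time the difference was -0.678, -2.46 and -4.21 points. Found in both other replicates were 2.39% ± 0.0334 and 3.76% ± 0.295 of the clusters. Both classes together reached 24.4% ± 1.72 found in another replicate, against 21.7% ± 0.669 in other protein-coding genes. That difference of 2.71 ± 1.56 points was positive in 3 of 3 replicates (exact sign-flip p = 0.25), and with the 50% overlap it was 0.512 points and positive in 2 of 3.

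In numbers of clusters, reads and conversions the 2 classes were close. The ribosome class had 7.83 clusters per bound gene and the respiratory class 7.44, with 12.7 and 12.5 reads per cluster. T-to-C changes were carried by 86.0% ± 0.310 of reads in the ribosome class and 86.7% ± 0.754 in the respiratory class, and conversion per T was 10.6% and 10.8%. The signs of these 4 differences varied between replicates, with exact sign-flip p-values of 0.5 or 1. Every deposited cluster had at least 4 reads with T-to-C and 2 conversion locations, so small clusters have a high T-to-C share by construction. That holds for all T-to-C shares given here. Among clusters with at least 10 reads the shares were 82.6% and 83.4%. Clusters per 10 kb were 2.12 ± 0.141 and 2.27 ± 0.0758 over annotated genes, lower in the ribosome class in 3 of 3 replicates. With the span of canonical transcripts as the length they were 3.38 and 3.13, higher in 3 of 3. The order thus depends on the length used, and clusters outside that span stayed in the count. Canonical introns held 92.1% of the ribosome and 96.9% of the respiratory intron clusters, so the 2 classes differed in this. In all, 15 differences were tested, 7 kept 1 sign over the replicates, and the adjusted values (Benjamini-Hochberg over exact p-values) lay between 0.536 and 1.

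Coding clusters of ATP5B had a low share of reads with T-to-C. Respiratory coding clusters, 24 in all, had 63.3% ± 7.83 of reads with T-to-C (SD, n = 3), against 89.4% ± 4.57 in 31 ribosome coding clusters and 81.4% ± 1.05 in other protein-coding genes. In the 5 coding clusters of ATP5B, 4 of 13, 16 of 45 and 15 of 43 reads carried the change in replicates 1, 2 and 3. Without ATP5B the respiratory value was 83.3% ± 10.4 over 19 clusters. In introns the share was 85.9% ± 0.370 in the ribosome class, 87.3% ± 0.416 in the respiratory class and 87.5% ± 0.625 in other genes. In 3′ UTRs it was 86.8% ± 1.98, 82.5% ± 1.39 and 78.3% ± 0.748. The ribosome class was thus below the respiratory class in introns and above it in 3′ UTRs in 3 of 3 replicates, differences that were not tested.

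Against other protein-coding genes the pooled intron share of both classes together was 87.3% ± 1.10 against 87.4% ± 0.492. The difference of -0.167 ± 1.52 points was smaller than its spread (exact sign-flip p = 0.75). Its direction turned under 5 other settings, to 2.85 ± 1.47 points weighted by reads, 1.44 for clusters of 3 or more distinct reads and 1.88 for those of 3 or more conversion locations, each positive in 3 of 3, and to 2.01 with at least 10 reads and 0.504 without replicate 1. Inside length classes the mean share was higher in the genes described here. The share was 76.7% against 53.8% between 5 and 10 kb, 81.9% against 71.1% between 10 and 20 kb, 87.1% against 83.1% between 20 and 50 kb and 95.3% against 90.1% between 50 and 100 kb. In those 4 length classes the difference was positive in 3 of 3 replicates. Under 5 kb the shares were 50.3% and 35.9%, and above 100 kb 95.6% and 94.6%, each positive in 2 of 3.

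Compared with the cytosolic ribosome, a larger share of clusters lay in introns when all were pooled. Genes of cytosolic ribosomal proteins, with a median length of 5.55 kb against 12.7 kb, had 51.0% ± 0.833 of their clusters in introns, which is 36.3 ± 1.74 points below the mitochondrial ribosome and respiratory genes. The difference had the same sign in 3 of 3 replicates (exact sign-flip p = 0.25). With each gene counted equally it was 18.8 ± 1.92 points, still positive in 3 of 3. Without the gene with most clusters in each set it was 29.0 ± 1.71 points, positive in 3 of 3, and the cytosolic share was 57.6%. Under 5 kb the mean order turned, with 58.3% ± 6.63 in cytosolic and 50.3% ± 14.8 in mitochondrial genes. From 20 to 50 kb the shares were 34.1% and 87.1%. The first of these rests on 12 cytosolic genes with none left out, so a single gene with many clusters can weigh on it. Pooled over all lengths, the clusters of cytosolic genes were denser, at 3.68 ± 0.117 per 10 kb, a difference of -1.48 ± 0.153 that was negative in 3 of 3 (exact sign-flip p = 0.25). With the canonical span as the length, clusters outside it included, the densities were 3.24 in the mitochondrial and 7.40 in the cytosolic genes. By length the cytosolic genes had 6.86 against 2.40 clusters per 10 kb under 5 kb and 5.07 against 3.26 from 5 to 10 kb. From 10 to 20 kb the densities were close, at 3.57 ± 0.450 and 3.44 ± 0.279. From 20 to 50 kb they were 3.97 and 2.45, and from 50 to 100 kb, with 3 cytosolic genes, the order turned to 0.679 ± 0.265 against 2.36 ± 0.442.

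The position of clusters within introns was described by class. Intron 1 held 26.8% ± 1.58 of the placed intron clusters in the ribosome class and makes up 21.4% of its intron length. For the respiratory class the values were 35.2% ± 1.02 and 35.6%, so clusters followed length there, while in other genes intron 1 held 33.8% ± 1.01 of clusters on 24.6% of intron length. Within 500 nt of an exon lay 18.8% ± 1.94, 23.1% ± 0.639 and 16.1% ± 0.595 of intron clusters in the ribosome class, the respiratory class and other genes. The median distance to the nearest exon was 2006 ± 109, 1538 ± 62.8 and 2517 ± 152 nt (SD, n = 3). The share within 500 nt and the distances are given without the lengths of the introns, so position and intron size cannot be told apart. These positions are a description without a test, and they follow the introns of the canonical transcript, which held 92.1%, 96.9% and 97.8% of the clusters classed as intron.

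The base composition of intron clusters is given without that of their surroundings, and clusters are defined by T-to-C changes, so T is favoured by construction. T made up 32.7% ± 1.10 of bases in the ribosome class, 31.7% ± 0.560 in the respiratory class and 31.9% ± 0.886 elsewhere, and C and T together 57.3%, 56.5% and 57.5%. ATCTT, searched on the transcribed strand, was in 11.01% ± 1.04 of ribosome intron clusters. Flanks of equal length, taken 200 nt away on either side, held it in 8.40% ± 0.967. In the respiratory class it was in 9.38% ± 1.02 against 7.38% ± 0.910 of flanks, and in other genes in 9.67% ± 0.367 against 6.77% ± 0.273. TCTT, which every ATCTT contains, was in 42.8%, 40.8% and 41.7% of intron clusters and in 30.02%, 31.2% and 29.7% of flanks. The excess of ATCTT over flanks was positive in every replicate, at 0.617, 2.81 and 4.42 points in the ribosome class and 2.70, 2.04 and 1.25 in the respiratory class. Over all clusters ATCTT was in 10.7% ± 1.02 of the ribosome class and 9.20% ± 0.987 of the respiratory class, a difference of 1.53 ± 1.98 points that came mainly from replicate 3 (0.417, 0.359 and 3.81 points, exact sign-flip p = 0.25).

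Related mitochondrial genes outside these name classes were bound in varying shares, read beside 40.7% of all protein-coding genes bound in all 3 replicates. Complex IV, cytochrome c oxidase, had 7 of 15 listed COX genes bound in all 3 replicates and 6 with no cluster, at a median length of 7.09 kb. That is near the share of all genes of any length. By length, 24.4% of all protein-coding genes from 5 to 10 kb and 49.8% from 20 to 50 kb were bound in all 3 replicates. Its COX4I1 had 117 ± 47.1 normalised reads (SD, n = 3). CYCS, the gene for cytochrome c, and CYC1, the gene for the cytochrome c1 subunit of complex III, which the prefixes do not take, had clusters in replicates 1 and 2 only. Of the mitochondrial aminoacyl-tRNA synthetases, which charge tRNAs for the organelle, 12 of 17 genes were bound in all 3 replicates, with NARS2 at 198 ± 62.4 and a median length of 34.2 kb for the list. Of 14 genes for mitochondrial DNA and RNA upkeep, of median length 27.7 kb, 12 were bound, and LRPPRC, a mitochondrial mRNA-binding protein, had 679, 638 and 1158 normalised reads, with replicate 3 the highest. Of 10 translation factors, of median length 30.4 kb, 6 were bound in all 3 replicates, with MRRF, the ribosome recycling factor, at 201 ± 33.6. TUFM, TWNK and PARS2 had no cluster.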

How the data were processed

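PAR-CLIP libraries of 3 biological replicates were used. The authors deposited a table of clusters per replicate. Per the file headers it gives read and conversion counts, which are whole and not normalised, and the fraction of reads with T-to-C. The build is hg38, per the submitters' processing notes, and all cluster sequences equalled hg38 at their coordinates. Aligner, cluster caller and annotation release are not given in the sources used here. Annotation classes are the authors', and intron counts take only the class named intron, without boundary classes such as intron-coding.

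Gene lengths, exons and introns came from GENCODE 44. Of 13557 gene names 12129 (89.5%) matched, through older symbols where needed. That annotation can be longer than the authors'. ATPIF1, C14orf2, USMG5, ICT1 and C17orf89 were not taken by the name rule. ATP5J2-PTCD1 and NDUFC2-KCTD14 are readthrough names that share territory with their parent genes.

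Differences were taken within each replicate and put through an exact sign-flip test, two-sided. The p-values measure the spread between these 3 samples. The genes named were the 10 of each class with the largest geometric mean of normalised reads, genes with a site in all 3 replicates and fixed catalytic or defining subunits. Others were chosen after their values were seen. The members and lists were chosen with earlier results of these data known. Overlap counting was tested on 1200 simulated clusters. Alternatives were stricter clusters, gene weighting, other motifs, overlaps and gene sets, and leaving out each replicate. Python 3.11.15, pandas 2.3.3 and numpy 2.4.6 were used.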

Additional observations from a re-analysis of the deposited data

Results flagged for a closer look

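Clusters with pseudogene and antisense names of the same families were in the deposited tables but in no comparison. They had a mean of 164 reads per replicate, in 22, 12 and 13 clusters with 283, 102 and 107 reads in replicates 1, 2 and 3. Since every deposited cluster has at least 4 reads, any listed name exceeds the limit that a count of 0 allows. NDUFA6-AS1, antisense to a complex I gene, had 122, 33 and 41 of those reads, and MRPS31P5 had 83, 7 and 25. SDHAP3 had 67, 24 and 34. Pseudogene reads can belong to the parent gene or its other copies.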

How the results depend on the processing

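Of 164 values under other settings, 151 kept their direction (gene counts stayed within 1.5 times) and 13 turned it. With each gene counted equally, the difference of ribosome minus respiratory class was -9.51 points in intron share, 6.22 points in 3′ UTR share, -0.244 reads per cluster, 1.14 points in T-to-C reads and 0.142 clusters per 10 kb. With the canonical span as the length, chosen after seeing the data, it was 0.251 clusters per 10 kb, clusters outside that span included. Reads per cluster also turned, to -0.367 without assembly factors and hyphenated names and to -0.124 without replicate 1. The intron share of these genes minus other protein-coding genes became 2.01 points with at least 10 reads, 1.44 with at least 3 distinct reads, 1.88 with at least 3 conversion locations, 2.85 weighted by reads and 0.504 without replicate 1. The cause was not tested.

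Leaving out each replicate in turn, ribosome minus respiratory ranged from 0.288 to 2.42 points in intron share, -2.56 to -0.754 in 3′ UTR share, -0.124 to 0.382 in reads per cluster and -0.222 to -0.0738 in clusters per 10 kb. Found clusters ranged from -4.21 to -0.678 points, where fewer replicates remain to be found in. Against other protein-coding genes the density difference stayed between 1.39 and 1.46 per 10 kb, the intron share lay between -0.992 and 0.504 points and found clusters between 0.404 and 2.36 points. Genes bound in all replicates kept were 48 to 52 in the ribosome class and 62 to 64 in the respiratory class.

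No paired analysis was possible because there is 1 group of samples, and each class difference was already taken within its library. Clusters with under 4 reads were not seen, and 3 replicates cannot give an exact p below 0.25.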
